A study of Zea mays with 4 samples.

Results

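Places in the maize genome that were bound by both CPP2 and OBF4, and by neither of the other factors studied, are described here. They were found by pooling the peak summits of the 4 lists, joining neighbouring summits at most 200 bp apart into regions, and keeping the regions with at least 1 CPP2 and 1 OBF4 peak and no C3H23 or THX20 peak. Of 333903 regions, 608 (0.182%) met the rule, with 690 CPP2 and 639 OBF4 peaks in them. The study used DNA affinity purification sequencing (DAP-seq), in which a HaloTag fusion of a transcription factor, made in a wheat germ extract and held on beads, captures fragments of purified genomic DNA that are then sequenced. The same kind of DNA, from B73 leaf at 14 DAG, was offered to every factor: CPP2 (gene Zm00001d031008) and OBF4 (gene Zm00001d012553), and the factors whose peaks exclude a region, C3H23 (gene Zm00001d008323) and THX20 (gene Zm00001d017420). The submitters describe them as acting downstream of the endosperm regulators ZmNAC128 and ZmNAC130. The regions were thus chosen by the presence of peaks in single libraries (n = 1 for each factor), and with no replicates no difference between classes of regions was tested.

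By its name, CPP2 belongs to the CPP family, plant proteins with cysteine-rich CXC domains that contact DNA, of which TSO1 of Arabidopsis is a known member. OBF4 is named as an ocs-element binding factor, a basic leucine zipper (bZIP) protein that binds DNA as a dimer. The ocs element was first known from promoters that Agrobacterium brings into plant cells, and in Arabidopsis the related TGA factors act in defence gene control. Purified DNA carries no nucleosomes, so the regions show what each protein can bind in bare DNA and not what it occupies in leaf or endosperm cells. The 2 proteins were assayed in separate libraries, so a shared region means that both can bind there, not that they bind together.

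Regions of CPP2 and OBF4 alone were a small part of the sites of either factor. They made up 1.22% (95% Wilson interval 1.13 to 1.32%) of the 49825 regions with an OBF4 peak and 0.429% (0.396 to 0.464%) of the 141725 regions with a CPP2 peak. By comparison, C3H23 and OBF4 alone accounted for 4.39% (4.21 to 4.57%) of the OBF4 regions, and OBF4 and THX20 alone for 1.74% (1.63 to 1.86%). Among CPP2 regions, 5.05% were shared with C3H23 alone and 2.50% with THX20 alone. The lists differ in length (76032 C3H23, 165420 CPP2, 51187 OBF4 and 105867 THX20 peaks), which also bears on these shares. Among OBF4 regions, though, the longest list, CPP2, had the smallest share. Intervals cover counting error of regions only, and regions that lie near each other are not independent. In 277 further regions CPP2 and OBF4 were joined by C3H23, THX20 or both.

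Most of the regions were simple. In 505 of 608 (83.1%) there was exactly 1 peak of each factor. Several CPP2 peaks were found in 79 regions and several OBF4 peaks in 29. The commonest form with more than 2 peaks was a pair of CPP2 peaks on one side of an OBF4 peak, in 33 regions with the CPP2 peaks at lower positions and in 26 with the OBF4 peak at the lower position, whereas an OBF4 peak between 2 CPP2 peaks was found 12 times. Regions were between 203 and 626 bp long with a median of 348 bp, counted to the outer edges of the 201 bp peaks. The CPP2 summit of the nearest pair lay at the lower position in 318 regions and at the higher position in 290.

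The strength of the peaks was read from the authors' signal per peak, which has no stated scale and is used here only within a list. A peak's percentile is its rank by signal in its own list, so that the strongest peaks have percentiles near 0. The 2 factors differed in where the shared peaks stood. The best CPP2 peak of a region had a median signal of 36 (range 13.4 to 333) and a median percentile of 56.3 (95% order-statistic interval 51.5 to 59.3), while regions with CPP2 peaks alone had a median signal of 44 and a median percentile of 46.4 (45.8 to 46.4). The best OBF4 peak had a median signal of 34 (range 14.9 to 354.9) and a median percentile of 40.5 (35.9 to 47.3), while regions with OBF4 peaks alone stood at a signal of 31 and a percentile of 48.8. Shared CPP2 peaks thus lay lower in their list than peaks of CPP2 alone, and shared OBF4 peaks lay higher in theirs, with intervals that did not overlap. The lower standing was not limited to this class for CPP2: the median percentile was 51.8 (50.7 to 52.9) in regions of C3H23 and CPP2 alone and 65.1 (64.4 to 66.1) in regions of CPP2 and THX20 alone. When only the 50% of peaks with the highest signal entered, ranked anew, the median CPP2 percentile was 45.3 (40.5 to 52.2). That is not on the weak side of 50, but no value for CPP2 alone is at hand in that setting. Whether the lower standing held there could therefore not be told. For OBF4 the higher standing was not resolved once distant summits were left out. With summits joined up to 100 bp, the 250 regions left had a median OBF4 percentile of 51.9 (43.1 to 59.0). In the 505 regions with exactly 1 peak of each factor it was 42.1 (38.1 to 51.9), an interval that includes the 48.8 of OBF4 alone. With the mean over a region's peaks in place of the best peak it was 40.5 (37.1 to 48.8), which reaches that value.

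The OBF4 peaks collected at both ends of their list. The strongest 10% of the OBF4 list held the best OBF4 peak of 113 regions, or 18.6% (15.7 to 21.9%), where the share over all regions with an OBF4 peak was 9.81%. The weakest 10% held 77 regions, or 12.7% (10.3 to 15.5%), where all OBF4 regions gave 9.52%. In regions of C3H23 and OBF4 alone the weakest 10% held a larger share, 16.1% (14.6 to 17.7%), and in regions of OBF4 and THX20 alone 10.5% (8.63 to 12.7%). In between, the fifth of the 10 classes held only 34 regions (5.59%). Regions of C3H23 and OBF4 alone had 4.39% (3.61 to 5.34%) of their best OBF4 peaks in the strongest 10%, and regions of OBF4 and THX20 alone had 10.7% (8.84 to 13.0%). For CPP2 the strongest 10% of the list held 51 regions, or 8.39% (6.44 to 10.9%), against 11.5% over all regions with a CPP2 peak, and the weakest 10% held 62 regions, or 10.2% (8.04 to 12.9%), against 8.72%. The interval of the first CPP2 share ended below the value over all CPP2 regions, and that of the second included it.

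**Figure D1:**
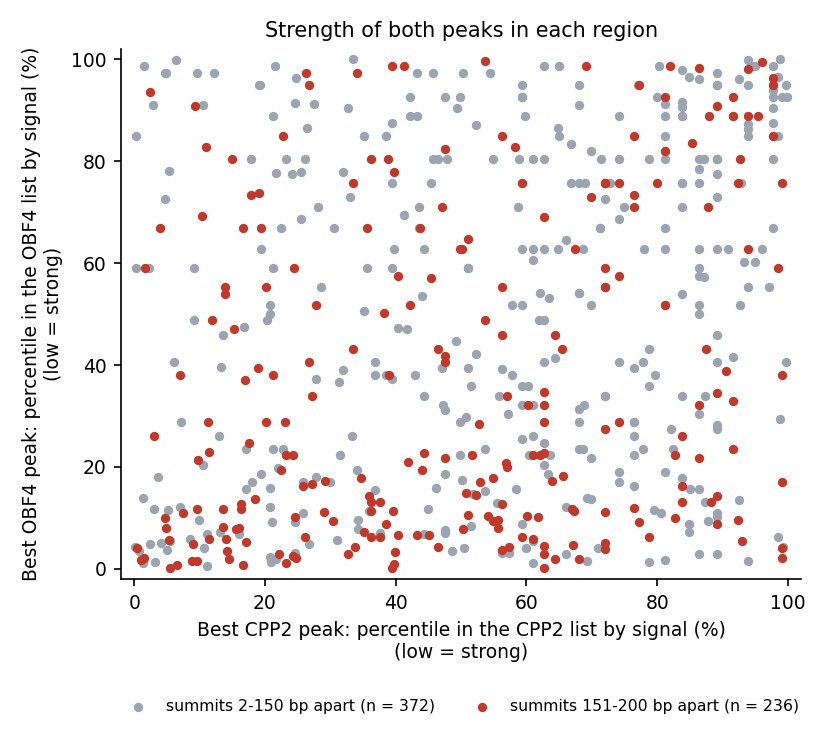
Each of the 608 points is a region, placed by the percentile of its best CPP2 peak (x axis) and of its best OBF4 peak (y axis) in their own lists by signal, with low values for strong peaks. The 236 regions whose summits lie 151 to 200 bp apart are red and gather towards the bottom, where OBF4 peaks are strong, at all CPP2 percentiles.

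Strength of one factor went only loosely with strength of the other. Across the 608 regions, the percentiles of the best CPP2 and the best OBF4 peak had a Spearman correlation of 0.26, given as a description since both peaks share the local sequence and its mappability. In the corners, 74 regions had both peaks in the strongest 25% of their lists and 75 had both in the weakest 25%. The mixed corners held fewer regions. An OBF4 peak in the strongest 25% stood with a CPP2 peak in the weakest 25% in 41 regions (6.74%), and 25 (4.11%) had the reverse. The OBF4 peak had the better percentile in 371 regions and the CPP2 peak in 237.

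The region with the best mean percentile lay on chromosome 8 from 48145898 to 48146180, with a CPP2 signal of 191 and an OBF4 signal of 144.8, and was within the top 1.13% and 1.45% of the 2 lists. The next was on chromosome 1 from 106605437 to 106605763 (CPP2 signal 182.7, OBF4 signal 156), and the third on chromosome 7 from 116281597 to 116281990 (CPP2 signal 197.1, OBF4 signal 135). All 3 were within the top 2% of both lists, and in none of them were the summits close: they lay 82, 126 and 193 bp apart. The rest of the leading 10 comprised 142435420 to 142435774 of chromosome 1, 69560459 to 69560785 of chromosome 2, 58681973 to 58682303 of chromosome 3, 43745505 to 43745763 and 158146001 to 158146367 of chromosome 5, and 5899050 to 5899334 and 57105925 to 57106301 of chromosome 9. Of these, the region at 5899050 on chromosome 9 held the strongest CPP2 peak of all 608 regions (signal 333, within the top 0.078% of the CPP2 list) beside an OBF4 peak of signal 90. The region at 57105925 on chromosome 9 had the strongest OBF4 peak of the 10 (signal 312, within the top 0.20% of the OBF4 list) beside a CPP2 peak of signal 132.

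Other regions paired a strong peak of one factor with a peak at the weak end of the other list. The widest gap in favour of CPP2 was on chromosome 8 from 99030752 to 99031010, with a CPP2 signal of 181 (top 1.49%) and an OBF4 signal of 17 (98.7%). The other 4 regions of this kind spanned 203057902 to 203058160 of chromosome 2, 112004673 to 112005007 of chromosome 3, and 115857951 to 115858208 and 180117115 to 180117484 of chromosome 5, with CPP2 signals of 126.6 to 162 and OBF4 signals of 16 to 19.7. In 3 of these 5 regions the summits lay 57 or 58 bp apart. The widest gap in favour of OBF4 was on chromosome 1 from 90696381 to 90696778, with an OBF4 signal of 124 (top 2.03%) and a CPP2 signal of 15 (99.1%). The remaining 4 were on chromosome 4 from 120647632 to 120647951 and from 116136192 to 116136565, and on chromosome 8 from 108636754 to 108637226 and from 128814540 to 128814833, with OBF4 signals of 77.4 to 138.7 and CPP2 signals of 14.9 to 18.

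The 2 summits seldom coincided. The nearest CPP2 and OBF4 summits of a region were a median of 130 bp apart (95% order-statistic interval 124 to 139 bp, range 2 to 200 bp). Only 118 regions, or 19.4% (16.5 to 22.7%), had them within 50 bp, and 236, or 38.8% (35.0 to 42.7%), had them 151 to 200 bp apart. In the other shared classes summits lay closer: a median of 63 bp for C3H23 and OBF4 alone with 42.1% (40.1 to 44.2%) within 50 bp, 83 bp for OBF4 and THX20 alone with 27.6%, 92 bp for C3H23 and CPP2 alone with 28.0%, and 76 bp for CPP2 and THX20 alone with 34.2%. No region of CPP2 and OBF4 alone had its summits at the same base or 1 bp apart. The closest lay on chromosome 5 from 140367396 to 140367598, where the summits were 2 bp apart with a CPP2 signal of 31 and an OBF4 signal of 33.9, and the next, also on chromosome 5 from 111489124 to 111489327, had them 3 bp apart. The other 3 of the closest 5 were on chromosome 1 from 237527104 to 237527418 and chromosome 4 from 158734158 to 158734362, both at 4 bp, and on chromosome 5 from 205320493 to 205320699 at 6 bp. In none of these 5 was the OBF4 signal above 33.9.

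Strong OBF4 peaks stood at a distance from the CPP2 summit. Of the 113 regions whose OBF4 peak was in the strongest 10% of its list, 61, or 54.0% (44.8 to 62.9%), had the summits 151 to 200 bp apart, and 7 had them within 50 bp. Turned round, 25.8% (20.7 to 31.8%) of regions with summits 151 to 200 bp apart had such an OBF4 peak, against 5.93% (2.90 to 11.7%) of those within 50 bp. The median OBF4 percentile was 24.1 (19.9 to 33.9) at 151 to 200 bp, and it was 50.4, 51.9 and 51.9 at 50 bp or less, 51 to 100 bp and 101 to 150 bp. For CPP2 the same 4 classes, from the shortest distance, had median percentiles of 59.6, 59.3, 61.0 and 50.0, and the share of CPP2 peaks in the strongest 10% of the list was 8.47% (5.55 to 12.7%) at 151 to 200 bp and 5.93% (2.90 to 11.7%) within 50 bp. In steps of 10 bp, the step from 171 to 180 bp held the most strong OBF4 peaks, 22 of its 52 regions.

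**Figure D2:**
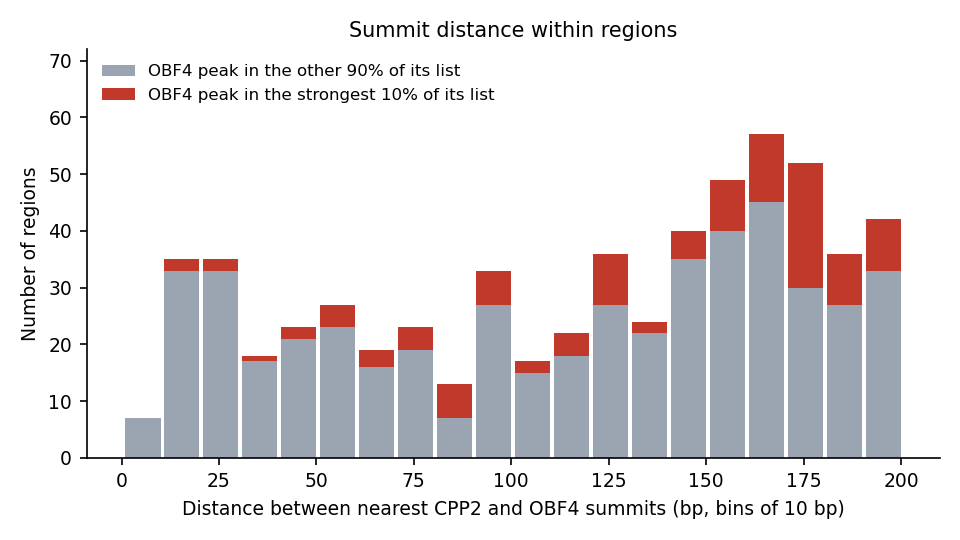
Bars count regions by the distance between the nearest CPP2 and OBF4 summits in steps of 10 bp, with regions whose OBF4 peak is in the strongest 10% of its list in red on top of the others in grey. Regions are most frequent from 151 to 180 bp, with 49, 57 and 52 regions in the 3 steps, and the step from 171 to 180 bp has 22 strong OBF4 peaks.

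The rise in frequency did not end at the rule's limit of 200 bp. Over all peaks, whatever other factor was near, CPP2 summits were found 3.07, 3.16, 4.32 and 6.53 times per 1000 OBF4 peaks in the successive steps of 50 bp up to 200 bp, and 7.31, 5.74, 4.83 and 5.35 times in the 4 steps from 201 to 400 bp. For the strongest 10% of OBF4 peaks the values were 1.38, 4.34, 5.13 and 15.4, then 15.4, 7.70, 8.29 and 7.31. Frequency was therefore highest between 151 and 250 bp, and the rule takes in the near side of that peak. Just inside the limit, 42 regions with summits 191 to 200 bp apart had a median CPP2 signal of 51.3 and a median OBF4 signal of 37.2. Just outside it, 57 regions that would join with summits 201 to 210 bp apart had medians of 62 and 34.7.

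Single distances also recurred. The most frequent was 18 bp, in 18 regions on 9 chromosomes, where the other distances within 10 bp of it were found a mean of 2.3 times each. In 12 of these 18 regions the CPP2 summit was at the lower position and in 6 at the higher. The next were 25 bp and 159 bp, with 12 regions each on 8 chromosomes or contigs, where the mean at the distances around was 3.1 and 4.65. Regions at 18 bp were of middling strength, with a median percentile of 63.7 for CPP2 and 40.5 for OBF4, and those at 25 bp stood higher, at 25.4 and 30.0. The strand of the sites is not in the lists, so both orders of the summits can be one arrangement read from either strand.

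Some regions of CPP2 and OBF4 alone stood in pairs 4 to 5.5 kb apart. Consecutive regions on a chromosome or contig were a median of 2.05 Mb apart, yet 25 of the 592 consecutive pairs (4.22%, 2.88 to 6.16%) had region starts 4 to 5.5 kb apart, measured between first summits, and none were closer than 4047 bp. These 25 pairs lay between 4047 and 5249 bp with a median of 4682 bp, and 19 of them between 4.5 and 5.0 kb. Within 20 kb there were only 14 further pairs. The pairs took in 49 of the 608 regions on all 10 chromosomes. Spacing of 4 to 5.5 kb to the next region was found in 8 of 2152 consecutive pairs for C3H23 and OBF4 alone (0.372%, 0.188 to 0.732%), in 1 of 850 for OBF4 and THX20 alone, in 93 of 7113 for C3H23 and CPP2 alone (1.31%) and in 34 of 3505 for CPP2 and THX20 alone (0.970%). Over all regions with an OBF4 peak it was 3.83% and over all with a CPP2 peak 8.18%, but those lists are far denser, with 5470 of 45610 consecutive regions of OBF4 alone and 31004 of 129339 of CPP2 alone closer than 4 kb.

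In most such pairs the 2 members had a similar internal layout. In 24 of 25 pairs the CPP2 summit lay on the same side of the OBF4 summit in both regions, at the lower position in 10 pairs and at the higher in 14. In 17 pairs the offset between the summits differed by at most 5 bp, with a median difference of 3 bp over the 25 pairs, and in 6 it was identical to the base. Among the 553 consecutive pairs over 20 kb apart, 270 (48.8%, 44.7 to 53.0%) had the CPP2 summit on the same side and 27 (4.88%, 3.38 to 7.01%) had offsets within 5 bp, with a median difference of 131 bp. The 14 pairs 5.5 to 20 kb apart lay between, with 11 on the same side (78.6%, 52.4 to 92.4%) and 5 with offsets within 5 bp (35.7%, 16.3 to 61.2%), so the shared layout was not limited to pairs 4 to 5.5 kb apart. In 20 of the 25 close pairs both distances exceeded 140 bp.

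**Figure D3:**
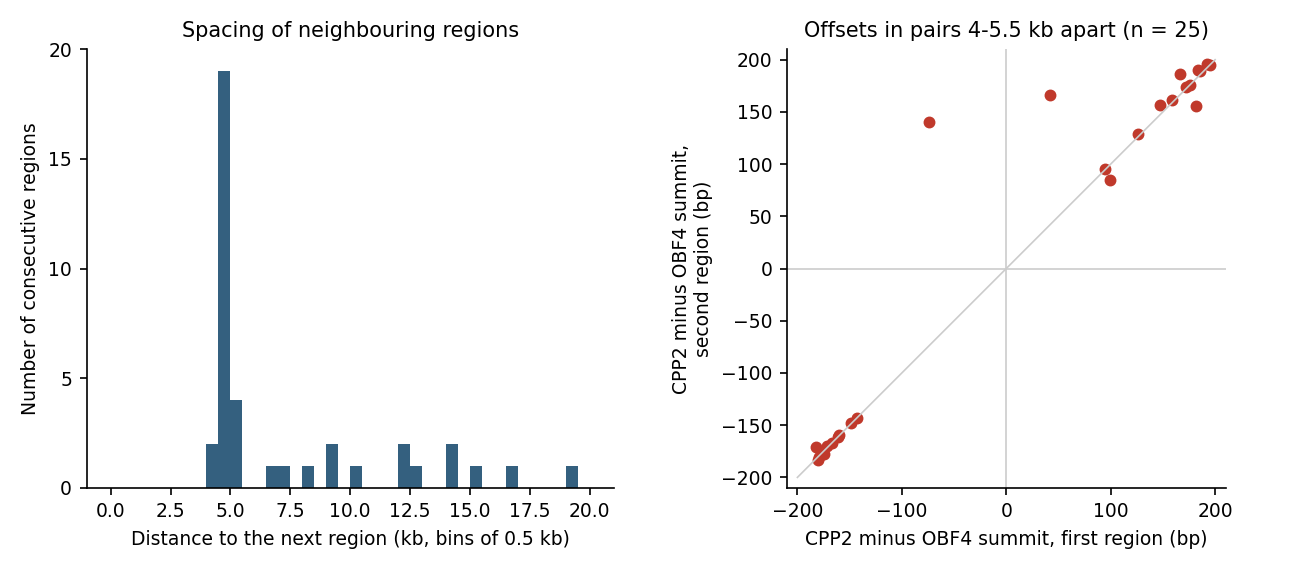
Left, distance from each region to the next one for the 39 consecutive pairs at most 20 kb apart, in bins of 0.5 kb, with 19 pairs between 4.5 and 5.0 kb. Right, the position of the CPP2 summit minus that of the OBF4 summit in the first and the second region of the 25 pairs 4 to 5.5 kb apart, which lie close to the diagonal of equal offsets in all but a few pairs.

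Peaks of both factors stood higher in their lists in paired regions than in the others. The best OBF4 peaks of the 49 regions had a median signal of 60 (range 20 to 312) and a median percentile of 11.7 (6.80 to 17.0), against a signal of 32 and a percentile of 45.9 (39.2 to 51.9) in the other 559. Their best CPP2 peaks had a median signal of 61.2 (range 20 to 163) and a median percentile of 31.0 (24.6 to 49.8), against 34.9 and 58.2 (53.6 to 61.0). The OBF4 peak was in the strongest 10% of its list in 23 of the 49 (46.9%) and in 90 of the 559 (16.1%). Summits were over 150 bp apart in 35 of the 49 (71.4%) and in 201 of the 559 (36.0%). Paired regions thus enter the link of OBF4 strength with summit distance given above, which was not counted without them. Partners were also alike in strength: over the 25 pairs the percentiles of the 2 regions had a Spearman correlation of 0.75 for CPP2 and 0.64 for OBF4, and over the 553 distant pairs of 0.02 and 0.05. Pairs that share a region are not independent, and these values are a description of regions chosen for their spacing.

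The strongest pair lay on chromosome 9, where a region from 57105925 to 57106301 with CPP2 and OBF4 signals of 132 and 312 was followed 4934 bp on by a region from 57110859 to 57111261 with signals of 126 and 189. In both, the CPP2 summit was 176 bp above the OBF4 summit. On chromosome 3 the regions from 138560820 to 138561187 and from 138565567 to 138565934 were 4747 bp apart, both with the CPP2 summit 167 bp below the OBF4 summit, and had OBF4 signals of 106.5 and 90.7 and CPP2 signals of 32 and 35.2. On chromosome 8 the regions from 8530934 to 8531294 and from 8535647 to 8536006 were 4713 bp apart with CPP2 signals of 111 and 110. The nearest pair of all, 4047 bp apart, was on chromosome 2 from 146863676 to 146864025 and from 146867723 to 146868071, with offsets of 149 and 148 bp and OBF4 signals of 92.8 and 42. A run of 3 regions was found on chromosome 9, starting at 52916060, 52920728 and 52925410, with steps of 4668 and 4682 bp and the CPP2 summit 166, 186 and 189 bp above the OBF4 summit. The only pair with opposite sides was on chromosome 6 from 18727340 to 18727754 and from 18731924 to 18732264, and its OBF4 peaks were weak, with signals of 20 and 26. Apart from the nearest pair and the regions of the leading 10, these examples were chosen after their values were seen.

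Single peaks were also counted around these regions, with the partner regions left in and then left out. Of the 639 OBF4 peaks in regions of CPP2 and OBF4 alone, 76 (11.9%, 9.61 to 14.6%) had another OBF4 peak of any kind 4.5 to 5.0 kb away, many of them in the paired regions already described. When neighbours in regions of CPP2 and OBF4 alone were left out, 39 (6.10%, 4.497 to 8.23%) had one. Of OBF4 peaks in regions of OBF4 alone, 3.05% (2.90 to 3.21%) had one. At 5.5 to 6.0 kb the shares without such neighbours were 2.19% (1.31 to 3.64%) and 3.01% (2.86 to 3.17%). For OBF4 peaks in the strongest 10% of the list, the shares at 4.5 to 5.0 kb were 10.7% (6.33 to 17.4%) and 4.17% (3.63 to 4.78%). Between 10 and 50% they were 6.03% (3.63 to 9.87%) and 2.96% (2.73 to 3.21%), and in the weaker 50% 4.21% (2.42 to 7.21%) and 2.90% (2.69 to 3.13%). In the strongest 10%, regions of OBF4 alone had 2.74% (2.31 to 3.25%) at 5.5 to 6.0 kb, so they too had more at 4.5 to 5.0 kb. For the 690 CPP2 peaks the share at 4.5 to 5.0 kb was 16.4% (13.8 to 19.3%) with all neighbours and 10.6% (8.50 to 13.1%) without those in regions of CPP2 and OBF4 alone. CPP2 peaks in regions of CPP2 alone had such a neighbour at this distance in 9.96% (9.81 to 10.1%) and at 5.5 to 6.0 kb in 6.14% (6.02 to 6.27%). A higher share at 4.5 to 5.0 kb was thus also seen in the CPP2 list at large.

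The regions were spread over all 10 chromosomes (602) and over contigs not placed on a chromosome (6). Chromosome 5 was the densest with 79 regions, or 0.353 per Mb (95% Poisson interval 0.279 to 0.440), and chromosome 10 the sparsest with 36, or 0.238 per Mb (0.167 to 0.330). These intervals overlap, so the order of the chromosomes is not resolved at these counts. As a share of all OBF4 regions, the values ran from 1.04% (0.775 to 1.39%) on chromosome 8 to 1.50% (1.21 to 1.87%) on chromosome 5. Chromosome length was counted to the last peak of any list. By bins of 1 Mb, 368 bins held 1 region, 90 held 2 and 18 held 3 or more, with the fullest bin on chromosome 7 from 12000001 to 13000000 holding 5.

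Along the chromosomes the regions leaned towards low coordinates. The first 50% of chromosome length held 351 of 602 regions, or 58.3% (54.3 to 62.2%), compared with 53.3% (52.9 to 53.8%) for regions of OBF4 alone and 51.9% (51.6 to 52.2%) for CPP2 alone. More regions lay in the first 50% than in the second on 9 of 10 chromosomes, the exception being chromosome 5 with 37 and 42. Among the 9, the margin ran from 33 and 32 on chromosome 4 to 50 and 27 on chromosome 3. Chromosomes were not counted in this way for OBF4 alone or CPP2 alone. The last 20% of chromosome length held 78 regions, or 13.0% (10.5 to 15.9%), against 17.1% of OBF4 alone and 18.1% of CPP2 alone. The first 20% held 132 regions, or 21.9% (18.8 to 25.4%), against 17.9% and 19.4%. In the other shared classes, the first 50% held 55.0% (53.8 to 56.1%) for C3H23 and CPP2 alone. It held 52.5% (50.4 to 54.6%) for C3H23 and OBF4 alone, 53.0% (49.6 to 56.3%) for OBF4 and THX20 alone and 51.2% (49.5 to 52.8%) for CPP2 and THX20 alone. In the same order the last 20% held 15.6% (14.7 to 16.4%), 16.6% (15.0 to 18.2%), 17.2% (14.8 to 19.8%) and 18.4% (17.2 to 19.7%). Only CPP2 and THX20 alone had intervals clear of those of CPP2 and OBF4 alone. For CPP2 and OBF4 alone, density in the central 20% was 1.16 times (0.894 to 1.50) that in the outermost 10% at either end. That interval includes 1. With the central 40% set against the outermost 20% at either end the ratio was 1.21 (1.01 to 1.46), just above 1. For the narrower zones the ratio was 1.36 (1.32 to 1.40) for OBF4 alone and 1.18 (1.16 to 1.21) for CPP2 alone. With 131 central and 113 outer regions, a difference from either single-factor ratio was not detectable at these counts.

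**Figure D4:**
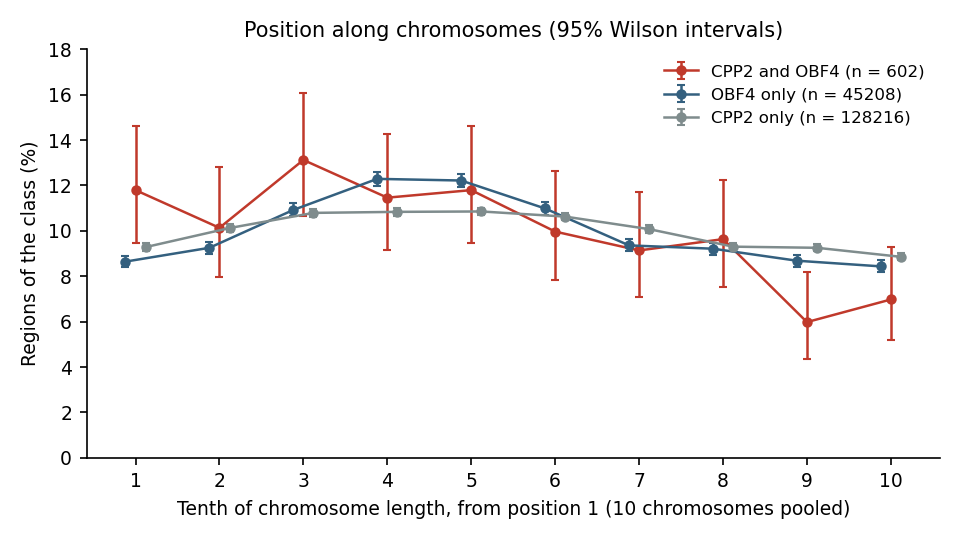
Share of the regions of each class in successive 10% steps of chromosome length, with the 10 chromosomes pooled and bars for 95% Wilson intervals. Regions of CPP2 and OBF4 (red, n = 602) have 11.8% in the first step and 5.98% and 6.98% in the last 2, below the intervals of OBF4 alone (blue) and CPP2 alone (grey) in the ninth.

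Peaks of the excluded factors were near some of the regions. A C3H23 summit lay within 1 kb of 79 regions (13.0%, 10.6 to 15.9%), against 8.41% (8.16 to 8.67%) of regions of OBF4 alone and 9.67% (9.52 to 9.84%) of CPP2 alone. The median distance to the nearest C3H23 summit was 7072 bp, against 8817 and 10273 bp. THX20 summits lay within 1 kb of 44 regions (7.24%, 5.43 to 9.58%), which was close to the 7.61% of OBF4 alone and below the 11.1% of CPP2 alone. A further CPP2 summit outside the region was within 1 kb of 104 regions (17.1%, 14.3 to 20.3%), as for CPP2 alone (17.4%), and a further OBF4 summit within 1 kb of 44 (7.24%, 5.43 to 9.58%), as for OBF4 alone (7.79%).

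The most peaks in a region were 4, in 10 regions. The first 5 of these by chromosome and position were on chromosome 1 from 247187219 to 247187804 and chromosome 5 from 35725944 to 35726500, each with an OBF4 peak followed by 3 CPP2 peaks, on chromosome 2 from 40874556 to 40875077 and chromosome 3 from 111539342 to 111539947, each with 3 OBF4 peaks and 1 CPP2 peak, and on chromosome 4 from 126557885 to 126558408, where OBF4 and CPP2 peaks alternated. The other 5 tied regions comprised 4 with 2 peaks of each factor (on chromosomes 5, 6 and 7) and 1 on chromosome 8 with 3 CPP2 peaks and 1 OBF4 peak. The regions with 3 OBF4 peaks had strong OBF4 signals (137.7 and 151.6) beside weak CPP2 signals (23 and 24). The alternating region had a CPP2 signal of 134.5 and an OBF4 signal of 60.8.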

How the data were processed

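DAP-seq was done with 1 library per factor and grouped by the factor in the sample titles. The deposited file names carry other factor names than the titles, and which is right could not be checked here. The submitters' processing notes name Trimmomatic 0.39 and Bowtie2 2.4.1. Not given in the sources used here were the genome build, the peak caller and any control. No gene or sequence is therefore assigned, and read depth is unknown. The deposited lists, 1 per library, have 10 columns and peaks of 201 bp with the summit 100 bp after the start. The deposited signal and score per peak have no stated scale. The deposited −log10 p-value was used as an alternative rank, and the lowest deposited −log10 q-value is 3 in every list. The file names point to removal of blacklisted regions, not tested here.

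Summits at most 200 bp apart were chained. A region's strength for a factor is its best peak, and equal signals share a mean rank. Positions are as in the lists, counted from 1. Named regions are the 10 with the best mean percentile, the 5 with the widest gap either way, 5 with the most peaks (the first by position of 10 that tie), the 5 with the closest summits, and the nearest pair. With 1 library per factor and members chosen by these peaks, no test was made. Shares have 95% Wilson intervals, medians order-statistic intervals, chromosome densities Poisson intervals and the central over outer ratio an exact binomial one. Members and comparisons were chosen with earlier results of these data known, and the spacing of 4 to 5.5 kb and the distance of 150 bp after these values were seen. Python 3.11.15, numpy 2.4.6, pandas 2.3.3, scipy 1.17.1 and matplotlib 3.10.9 were used, and the chaining was tested on simulated data.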

Additional observations from a re-analysis of the deposited data

How the results depend on the processing

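No paired analysis was possible because there were no replicates, and leaving 1 out could not be tried either. Chaining at 100 bp, which by construction keeps close summits, left 250 regions (0.491% of OBF4 and 0.158% of CPP2 regions), with median percentiles of 61.0 for CPP2 and 51.9 for OBF4, a median distance of 49 bp, 51.2% within 50 bp and a central over outer ratio of 1.51 (1.02 to 2.25). Chaining at 300 bp gave 1008 regions (2.05% and 0.742%), a median distance of 179 bp and 11.5% within 50 bp. When only the 50% of peaks with the highest signal entered, ranked anew, 174 regions were left (0.696% and 0.232%), at percentiles of 45.3 for CPP2 and 25.9 for OBF4, with a median distance of 154 bp and 13.8% within 50 bp. By −log10 p it was 189 regions (0.761% and 0.255%), at 46.6 and 29.5, with 157 bp and 14.8%. Regions with exactly 1 peak of each factor made up 1.01% of OBF4 and 0.356% of CPP2 regions, at median percentiles of 59.3 for CPP2 and 42.1 for OBF4. The shift of shared OBF4 peaks towards the strong end was thus not resolved at 100 bp. There the interval of the median, 43.1 to 59.0, included the 48.8 of OBF4 alone at 200 bp. In the stronger 50% of peaks the median CPP2 percentile was below 50 by either rank, with intervals of 40.5 to 52.2 and 41.5 to 53.4. Regions of CPP2 alone stood at 46.4 with all peaks, and no such value is at hand for the stronger 50%. Whether CPP2 peaks were shifted towards the weak end there could therefore not be told. Alternatives chosen after seeing the data bear on the pairs at 4 to 5.5 kb: they numbered 2 at 100 bp, 43 at 300 bp (42 on the same side), 12 with the stronger 50% by signal (all 12 on the same side), 16 with 1 peak of each factor (all 16) and 26 for a window of 3 to 7 kb (25). Ranked by −log10 p, 54.8% of strong OBF4 peaks were over 150 bp from CPP2, against 38.8% over all regions. The share of strong OBF4 peaks was 59.0% (43.4 to 72.9%) in the stronger 50% by signal. At 300 bp, where distances run to 300 bp, it was 74.2%. With median distances of 154 and 179 bp, at least 50% of all regions in these settings were also over 150 bp, and their exact share is not at hand. At 100 bp no summits of a region can be over 150 bp from the nearest of the other factor, so the share of strong OBF4 peaks is 0 by construction. Fewer or more regions follow from the construction of these settings, as do the changes in summit distance when the joining limit was moved. For the remaining changes the cause was not tested. Unknown read depth limits every count.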
